A study of Mus musculus with 6 samples.

Results

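A set of 10 genes of the heat shock response was followed in primary mouse dermal fibroblasts: the inducible HSP70 genes Hspa1a and Hspa1b, the constitutive HSP70 gene Hspa8, Hsph1, Hsp90aa1, the J-domain genes Dnaja1 and Dnajb1, the co-chaperone gene Bag3, and the small heat shock protein genes Hspb1 and Hspb8. They were read through every probe set whose single gene symbol in the platform annotation is one of these 10 names, which gave 26 of the 45101 probe sets of the array. The fibroblasts came from dermis explants of B6 mice aged 0 to 2 days, of mixed sex, derived separately for each replicate, and were used at passage 4. In the treated group, 3 cultures received 5-aza-2'-deoxycytidine at 5 µM for 96 hours, renewed every 24 hours, followed by 24 hours in medium free of drug. The control group was 3 untreated cultures. Each culture was read on 1 Affymetrix expression array, so n = 3 in each group. The drug, also called decitabine, enters DNA in place of deoxycytidine and binds DNA methyltransferases irreversibly, which lowers methylation over cell divisions.

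Heat shock proteins are molecular chaperones. HSP70 proteins bind unfolded stretches of other proteins, J-domain proteins deliver these clients and stimulate the ATPase of HSP70, and exchange factors such as Hsph1 and Bag3 release the bound ADP. HSP90 completes the folding of kinases and receptors, and small heat shock proteins hold unfolded proteins without using ATP. Under proteotoxic stress heat shock factor 1 (HSF1) forms trimers and binds inverted repeats of the letters GAA in the promoters of such genes.

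The members did not move as a block. The small heat shock protein gene Hspb1 was 4.02-fold and 4.80-fold higher in treated cultures at its 2 probe sets. Hsp90aa1, Hsph1 and Hspa8 rose by smaller amounts at every probe set tested, Hspb8 at 2 of its 3 and Dnajb1 at 1 of its 2. The inducible HSP70 gene Hspa1b was lower at 1 of its 3 probe sets. For Hspa1a, Dnaja1 and Bag3 no probe set passed the test. Signals are MAS5 values scaled to a common trimmed mean per array. A log2 change is treated minus control on the scale log2(signal + 9.66), with its moderated standard error (SE) from limma. Of the 26 member probe sets 24 were bright enough to be tested, and at an adjusted p under 0.05 (limma, adjusted over all 23388 probe sets tested) 14 were higher and 1 was lower. Over all probe sets tested, 38.7% were called, 18.4% higher and 20.3% lower. The groups did not overlap at 16 of the 24, against 50.4% of all probe sets tested. The 14 and the 16 include the dim 1431182_at of Hspa8, which met the brightness filter through the treated arrays, where it was high. The median log2 change was 0.41 over the 24 probe sets and 0.23 over the brightest tested probe set of each of the 10 genes, beside -0.003 over the 12194 genes tested. Counted by those brightest probe sets, 5 of the 10 genes rose and 1 fell, against 19.5% and 21.6% of all genes (41.1% in either direction). The deposited signals had trimmed means between 149.2 and 223.9 per array, and left unscaled, 6 member probe sets were called higher and 0 lower. Over all 23388 probe sets tested, 1977 were then called higher and 3042 lower.

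**Figure D1:**
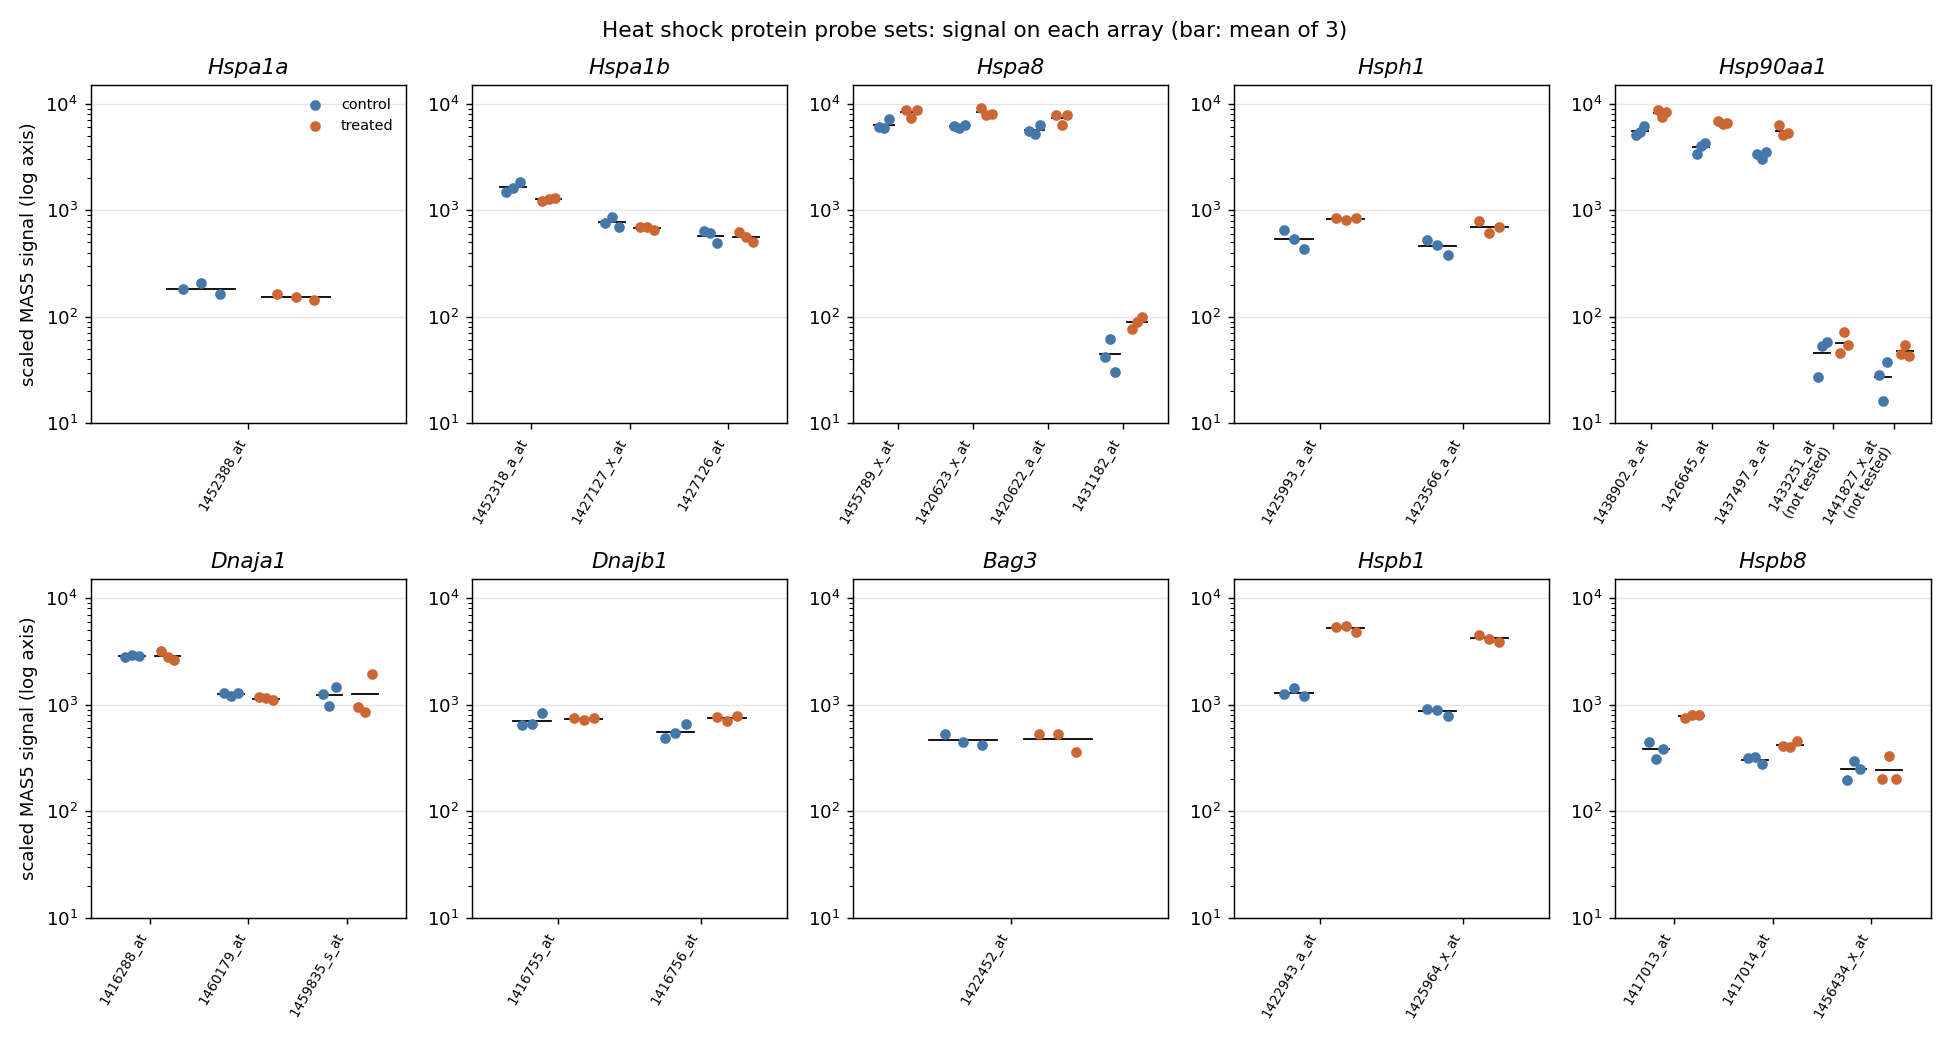
Scaled MAS5 signal (log axis) of each of the 26 member probe sets on the 3 control arrays and the 3 treated arrays, 1 panel per gene, with a bar at the mean of each group. The 2 probe sets of Hspb1 show the groups far apart, at means of 1293 and 5220.0 for 1422943_a_at, while the points of Bag3 lie among each other.

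**Figure D2:**
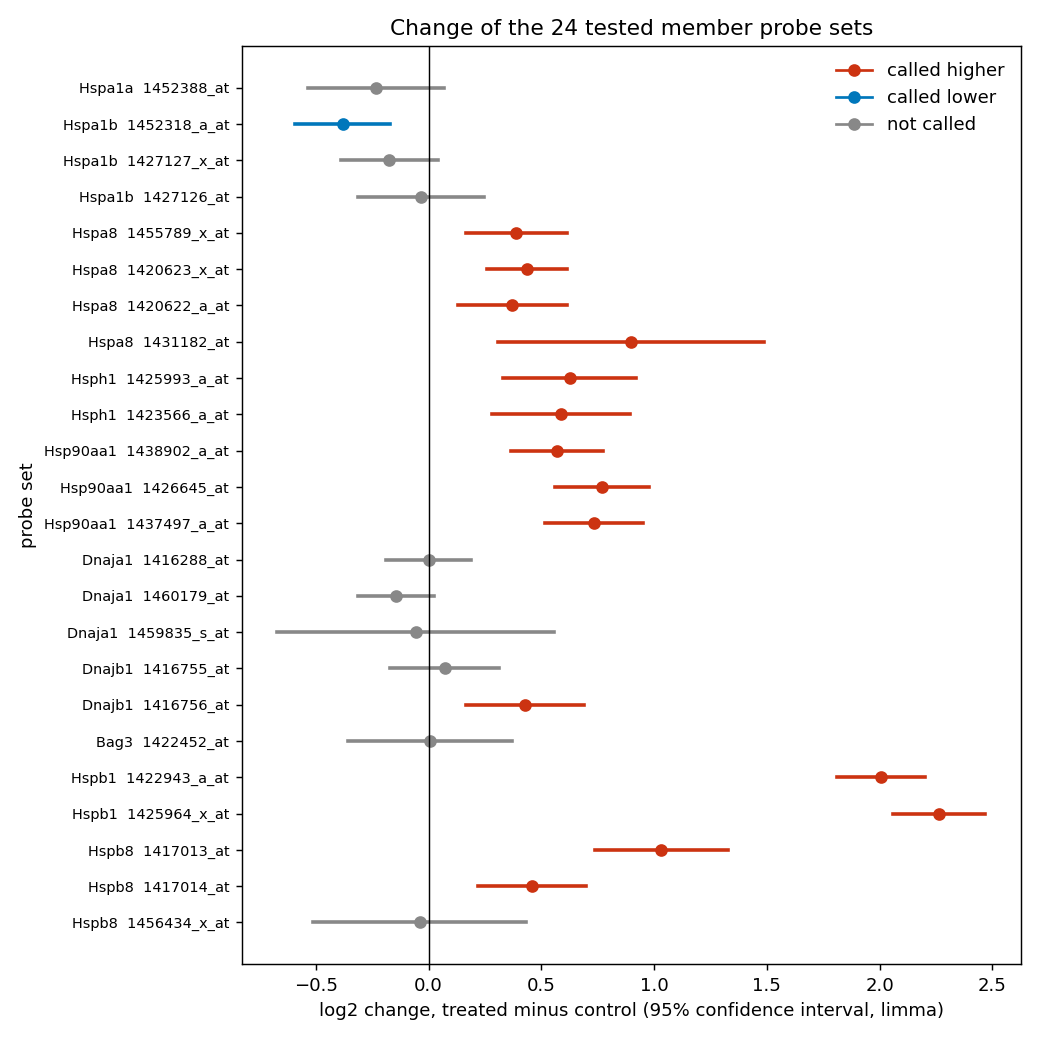
Log2 change, treated minus control, with its 95% confidence interval from limma, for the 24 tested member probe sets, coloured by call. Both probe sets of Hspb1 lie above 1.81 over their whole intervals, and 1452318_a_at of Hspa1b is the member probe set called lower.

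The 8 fibroblast markers (Col1a1, Col1a2, Col3a1, Pdgfra, Thy1, Dcn, Vim and S100a4) were all measured. Their summed signal ran from 52711 to 57947 in controls and from 30373 to 36251 in treated cultures, where 6 were called lower and S100a4 higher. In bulk RNA, fewer cells of a type and less RNA per cell cannot be told apart. As a reading of RNA integrity, the 3'/5' signal ratio of Actb was 1.264 ± 0.0101 (SD, n = 3) for controls against 1.158 ± 0.0192 after treatment, with p = 0.1 by a two-sided exact permutation test, which cannot go lower for 3 against 3. The same ratio of Gapdh went the other way, from 0.7385 ± 0.0155 to 0.7642 ± 0.0241 (exact permutation test, p = 0.2). The summed leukocyte markers ran from 510.8 to 562.9 in controls and from 638.1 to 784.9 after treatment. Cd68 was called higher (log2 change 1.08), and Ptprc, Cd3e and Itgam were below the array median on every array. Cd68 was above the array median on 4 of 6 arrays, among them all 3 treated ones. It thus entered the test through the group where it was high. Csf1r (limma, adjusted p = 0.0974) and Lyz2 (limma, adjusted p = 0.194) were tested and not called. The sums of the keratinocyte, endothelial, melanocyte and nerve, and adipocyte markers overlapped between groups. The part of these values in the results that follow was not tested.

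Hspb1 and Hspb8 are small heat shock proteins. Hspb1 binds actin and unfolded proteins, and Hspb8 works with Bag3 to send damaged proteins to autophagy. Their promoter windows are shown because these genes had the highest changes among the members by brightest probe set. The windows run from 250 bases before to 50 bases after the annotated start, 5′ to 3′, from RefSeq on GRCm38.p6, at chr5:135887669-135887968 on the + strand for Hspb1 and at chr5:116422815-116423114 on the - strand for Hspb8. Capitals mark a pair of inverted GAA units, GAANNTTC.
Hspb1: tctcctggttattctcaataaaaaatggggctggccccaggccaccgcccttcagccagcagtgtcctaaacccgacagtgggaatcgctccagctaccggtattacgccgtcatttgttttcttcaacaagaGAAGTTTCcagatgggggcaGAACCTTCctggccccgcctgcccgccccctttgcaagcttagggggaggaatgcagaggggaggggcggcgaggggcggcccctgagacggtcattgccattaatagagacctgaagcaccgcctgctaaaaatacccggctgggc
Hspb8: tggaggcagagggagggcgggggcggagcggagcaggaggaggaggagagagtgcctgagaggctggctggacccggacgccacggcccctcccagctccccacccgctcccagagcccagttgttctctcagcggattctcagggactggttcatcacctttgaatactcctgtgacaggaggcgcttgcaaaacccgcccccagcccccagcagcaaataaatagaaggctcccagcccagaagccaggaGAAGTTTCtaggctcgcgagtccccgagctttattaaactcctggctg
The window of Hspb1 holds 2 such pairs, at positions 134 to 141 and 154 to 161, and that of Hspb8 holds 1, at positions 253 to 260.

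At 1422943_a_at the signal of Hspb1 was 1259.6, 1417 and 1203 in the 3 control cultures and 5364, 5447 and 4849.5 in the 3 treated ones. Every treated array was far above every control array. The log2 change was 2.01 ± 0.087 (SE; adjusted p = 3.33e-07). The other probe set, 1425964_x_at, went from 862.8 ± 71.3 (SD, n = 3) to 4177 ± 319.6 and gave 2.26 ± 0.091 (adjusted p = 2.23e-07). An x in such a name marks probes that other transcripts may share. Over the 14 alternative settings the changes ran from 1.92 to 2.07 and from 2.19 to 2.31.

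The 3 probe sets of Hspb8 differed. At 1417013_at the signal was 448.8, 307.4 and 383.6 in controls and 742.9, 795.6 and 796.9 in treated cultures. The groups were clearly apart, and the log2 change was 1.03 ± 0.131 (SE; adjusted p = 0.000227). At 1417014_at it rose by 0.46 ± 0.107 (adjusted p = 0.00748), a call lost without scaling (adjusted p = 0.328). The dimmest, 1456434_x_at, read 246.3 ± 49.98 (SD, n = 3) and 242.7 ± 73.8, with overlapping groups and a 95% interval of the log2 change from -0.51 to 0.43 (adjusted p = 0.902).

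Among the other small heat shock proteins, 2 of 5 tested genes rose and 0 fell, and 3 rose when each was read by its probe set of lowest p. Over all genes 19.5% rose and 21.6% fell by the brightest probe set, and 22.3% and 25.0% by that of lowest p. Cryab, the alpha B-crystallin of lens and muscle, rose by 1.255 ± 0.107 (SE; adjusted p = 1.93e-05) and Hspb3 by 0.63 ± 0.202 (adjusted p = 0.0336). The probe set of Hspb3 was dim, with a control mean of 64.7, and was not called with no filter (limma, adjusted p = 0.0726). Hspb7 changed by 0.42 ± 0.209 (adjusted p = 0.147). Several small heat shock proteins are abundant in muscle, and markers of skeletal muscle were read beside them. Of 8 such markers 4 were tested and 3 rose, Acta1, Actc1 and Des. Acta1, the actin of skeletal muscle fibres, went from a mean of 549.5 to 4604, a log2 change of 3.05. The summed signal of the 8 markers ran from 944.8 to 1199 in controls and from 5134 to 5675 in treated cultures. Myod1, Myog, Myh3 and Tnnt3 were too dim to be tested, and 3 of the 8 were below the array median on every array. The part of these markers in the rise of Hspb1, Hspb8 and Cryab was not tested.

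Hspa1a and Hspa1b encode the stress-inducible HSP70, well known targets of HSF1. Their annotated starts lie 12918 bases apart on chromosome 17, and their transcripts are so alike that signal on their probe sets cannot be assigned to either with certainty. The promoter of Hspa1b, at chr17:34959189-34959488 on the - strand (RefSeq, GRCm38.p6), is shown because none of its probe sets was called higher. Capitals mark the pair GAANNTTC.
Hspa1b: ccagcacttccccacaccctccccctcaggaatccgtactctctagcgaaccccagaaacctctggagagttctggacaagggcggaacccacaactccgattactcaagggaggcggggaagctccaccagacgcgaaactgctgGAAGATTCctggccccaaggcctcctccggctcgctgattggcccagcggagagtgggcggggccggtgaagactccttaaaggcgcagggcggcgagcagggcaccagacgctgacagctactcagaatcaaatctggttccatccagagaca
The window of Hspa1a, at chr17:34972107-34972406, matches it at 296 of 300 bases, with the substitutions T44C, C47T, G249T and T276C, counted from 1 at the 5′ end of the window with the base of Hspa1b first. Both hold 1 pair, at positions 147 to 154.

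The probe set 1452318_a_at of Hspa1b read 1497, 1609.6 and 1860.3 in the 3 control cultures and 1214, 1278 and 1303 in the 3 treated ones. All treated arrays were below all controls. The log2 change was -0.38 ± 0.093 (SE; adjusted p = 0.00983), and the controls were 1.30-fold higher. Without scaling the change was -0.46 (adjusted p = 0.131). The 2 other probe sets overlapped between groups. At 1427127_x_at the means were 775.5 ± 79.1 (SD, n = 3) and 684.3 ± 28.0, with a 95% interval from -0.39 to 0.04 (adjusted p = 0.187). At 1427126_at they were 579.3 ± 77.02 and 564.5 ± 63.7, with an interval from -0.31 to 0.245 (adjusted p = 0.857). Control array 3 was the highest of the controls at 1452318_a_at and the lowest at the other 2, with 702.7 and 491.7. The single probe set of Hspa1a, 1452388_at, read 180.5, 206.6 and 163.6 in controls and 163.8, 154.0 and 145.0 in treated cultures. Its groups overlapped by a small margin, and the log2 change was -0.23 ± 0.135 (SE; adjusted p = 0.209).

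Hspa8, the constitutive HSP70 of the cytosol, also strips clathrin from vesicles and serves chaperone-mediated autophagy. At 1420623_x_at its signal was 6128, 5976 and 6254 in controls and 9061, 7870.4 and 7963 in treated cultures. The treated arrays were all higher, and the log2 change was 0.44 ± 0.078 (SE; adjusted p = 0.00182). The other bright probe sets gave 0.39 (1455789_x_at; adjusted p = 0.0119) and 0.37 (1420622_a_at; adjusted p = 0.021). The dim 1431182_at gave 0.90 (adjusted p = 0.0224), from 44.5 ± 15.6 (SD, n = 3) to 89.1 ± 11.6. Its control mean lay below the median of every array, where signal was not separated from background, and its change ran from 0.63 to 1.11 over the 14 alternative settings. It was above the array median on 4 of 6 arrays, among them all 3 treated ones. It thus entered the test through the group where it was high. Without scaling the log2 changes of the 4 were 0.31, 0.36, 0.30 and 0.84, in the order 1455789_x_at, 1420623_x_at, 1420622_a_at and 1431182_at, and none was called (adjusted p from 0.0837 to 0.23). The call at 1420622_a_at was also lost without control array 1 or 2 or treated array 1 or 3 (adjusted p from 0.0627 to 0.0813), that at 1431182_at without control array 1 or 3 or treated array 2 or 3 (adjusted p from 0.0557 to 0.0827), and that at 1455789_x_at without control array 2 (adjusted p = 0.0513). With no filter 1420622_a_at (adjusted p = 0.0575) and 1431182_at (adjusted p = 0.0511) were not called, nor with no intensity trend 1420622_a_at (adjusted p = 0.0721) and 1455789_x_at (adjusted p = 0.051).

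Hsph1 is the HSP110 of the cytosol, an exchange factor for HSP70 that also takes part in dissolving aggregates. Its promoter, at chr5:149636266-149636565 on the - strand (RefSeq, GRCm38.p6), is shown because among the members searched only Hsph1 holds 3 alternating units, GAANNTTC followed by NN and GAA, on either strand. Capitals mark every pair, GAANNTTC or TTCNNGAA, and the longest stretch of capitals is the triple.
Hsph1: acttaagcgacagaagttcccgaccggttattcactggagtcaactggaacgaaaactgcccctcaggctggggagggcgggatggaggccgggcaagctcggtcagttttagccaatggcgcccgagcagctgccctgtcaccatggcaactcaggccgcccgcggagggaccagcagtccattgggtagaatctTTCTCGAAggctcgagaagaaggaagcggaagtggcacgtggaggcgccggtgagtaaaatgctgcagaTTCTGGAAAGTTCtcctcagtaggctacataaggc
The triple spans positions 266 to 278, and a further pair lies at positions 197 to 204. A second annotated start of Hsph1 gives a window with the same matches at other positions.

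Hsph1 read 647.8, 540.4 and 437.2 in controls and 845.5, 806.6 and 842.2 in treated cultures at 1425993_a_at. The treated arrays lay close together above the spread of the controls, and the log2 change was 0.63 ± 0.131 (SE; adjusted p = 0.00426). At 1423566_a_at the change was 0.59 ± 0.136 (adjusted p = 0.00727). Without scaling these were 0.55 (adjusted p = 0.0914) and 0.51 (adjusted p = 0.134). Among the other HSP70 and HSP110 genes listed, 2 of 6 tested rose and 1 fell, beside 19.5% and 21.6% of all genes. The HSP110 genes Hspa4 (0.95 ± 0.087, SE; adjusted p = 2.92e-05) and Hspa4l (0.49 ± 0.138; adjusted p = 0.0199) rose. Hspa13, an HSP70 of the secretory pathway, fell (-0.34 ± 0.103; adjusted p = 0.0251).

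Hsp90aa1 encodes the inducible HSP90 of the cytosol, which folds kinases and steroid receptors and helps keep HSF1 inactive. At 1426645_at its signal was 3401, 4031 and 4261 in controls and 6883, 6404 and 6571 in treated cultures. The treated group lay wholly above the controls, and the log2 difference was 0.77 ± 0.093 (SE; adjusted p = 0.000169). The other bright probe sets changed by 0.735 ± 0.097 (1437497_a_at; adjusted p = 0.000296) and 0.57 ± 0.091 (1438902_a_at; adjusted p = 0.00094). These 3, with both probe sets of Hspb1 and 1417013_at of Hspb8, were the 6 called member probe sets that kept their call under each of the 14 alternative settings. The 2 remaining probe sets of Hsp90aa1 were too dim to be tested: 1433251_at read 46.1 ± 16.3 (SD, n = 3) and 57.2 ± 13.3, and 1441827_x_at 27.5 ± 10.8 and 47.5 ± 6.32.

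Genes that assist HSP90 were partly higher. Of 7 tested, 4 rose and 1 fell, beside 19.5% and 21.6% of all genes, with a median log2 change of 0.39. Ahsa1, which stimulates the HSP90 ATPase, rose by 0.805 ± 0.092 (SE; adjusted p = 0.000117), the HSP90-binding protein Chordc1 by 0.44 ± 0.091 (adjusted p = 0.00376) and Cdc37, which brings kinases to HSP90, by 0.39 ± 0.084 (adjusted p = 0.00503). The 1 that fell was the immunophilin Fkbp5 (-0.52 ± 0.140; adjusted p = 0.0151), named after its value was seen. Hsp90ab1 was not analysed here.

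Dnaja1 and Dnajb1 are J-domain partners of HSP70, and Dnajb1 is a classical HSF1 target. The probe set 1416288_at of Dnaja1 read 2828, 2902 and 2890.0 in controls and 3185, 2816 and 2647 in treated cultures. The controls lay inside the range of the treated arrays, and the 95% interval of the log2 change ran from -0.19 to 0.19 (adjusted p = 0.997). At 1460179_at the groups did not overlap, at 1261 ± 40.1 (SD, n = 3) and 1139.8 ± 38.7, but the change of -0.145 ± 0.075 (SE) was not called (adjusted p = 0.16). At 1459835_s_at the treated arrays read 954.6, 846.4 and 1942, and the interval was wide, from -0.67 to 0.56.

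Dnajb1 rose at 1 of its 2 probe sets. At 1416756_at the signal was 482.5, 539.7 and 653.2 in controls and 764.7, 703.8 and 781.3 in treated cultures. The lowest treated array was above the highest control, and the log2 change was 0.43 ± 0.117 (SE; adjusted p = 0.0163). This call was lost without control array 1 (adjusted p = 0.0562), treated array 1 (adjusted p = 0.0542) or treated array 3 (adjusted p = 0.0524), and without scaling (adjusted p = 0.346). At 1416755_at the means were 709.3 ± 102.2 (SD, n = 3) and 740.9 ± 17.6, with an interval from -0.17 to 0.31 (adjusted p = 0.646). Of 14 other J-domain genes 4 rose and 0 fell, and 7 rose when each gene was read by its probe set of lowest p. Over all genes 19.5% rose and 21.6% fell, and 22.3% rose when read by the lowest p. Dnaja4 rose by 1.52 ± 0.130 (SE; adjusted p = 2.05e-05), from a mean of 148.4 to 439.8. Dnajb4 rose by 0.66 ± 0.132 (adjusted p = 0.00343) and the ribosome-associated Dnajc2 by 0.42 ± 0.119 (adjusted p = 0.0189).

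Bag3 releases clients from HSP70 and hands them, with Hspb8, to autophagy. Its probe set 1422452_at read 534.5, 449.6 and 419.9 in controls and 534.2, 534.1 and 359.4 in treated cultures. The third treated array was the lowest of all and the other two were close to the highest control, and the 95% interval of the log2 change ran from -0.355 to 0.37 (adjusted p = 0.975). Other exchange factors and regulators of HSP70 went both ways, with 3 of 8 higher and 1 lower, and 5 higher when read by the probe set of lowest p. The shares of all genes were 19.5% higher and 21.6% lower, and 22.3% higher by the lowest p. Bag2, which inhibits the ubiquitin ligase Stub1, rose by 0.95 ± 0.089 (SE; adjusted p = 3.45e-05) and Bag1 by 0.45 ± 0.076 (adjusted p = 0.00136). Bag5 fell, with a log2 change of -0.90 ± 0.096 (adjusted p = 7.7e-05), from signals of 436.4 to 477.4 in controls to 239.7 to 250.3 in treated cultures.

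Ratios of deposited signals within an array do not depend on how arrays are scaled. The 6 ratios taken were chosen after the values had been seen, each between the brightest probe sets of 2 genes. The log2 ratio of Hspb1 to Hspa1b differed by 2.40 between treated and control cultures, that of Hsp90aa1 to Hspa1b by 0.95 and that of Hspa8 to Hspa1b by 0.77. Against other members, Hspb1 to Hspb8 differed by 0.96, Hsph1 to Bag3 by 0.63 and Hsp90aa1 to Dnaja1 by 0.57. In all 6 the treated arrays lay above the controls, each with p = 0.1 by a two-sided exact permutation test (adjusted over the 6, p = 0.1), which this design cannot go below. Each ratio set a gene over one with a lower change, so this direction followed from the choice and adds no support to the calls. The ratios to Hspa1b all used 1452318_a_at, its only probe set called lower.

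The chaperone lists outside the members held 92 genes, of which 82 were tested. Of these 33 rose and 5 fell, or 46.3% called, and the median log2 change of the 82 was 0.22. Over all genes by their brightest probe set 41.1% were called, 19.5% higher and 21.6% lower. Read by the probe set of lowest p, 41 rose and 7 fell, or 58.5% called, against 47.3% of all genes read in that way (22.3% higher and 25.0% lower). Chaperonins, the barrel-shaped folding machines, were higher in 7 of 10 genes and lower in 0 (1 by the probe set of lowest p), with a median of 0.53. In the cytosolic chaperonin Cct7 rose by 0.82 ± 0.081 (SE; adjusted p = 4.57e-05) and Cct3 by 0.71 ± 0.074 (adjusted p = 6.84e-05), and the mitochondrial chaperonin Hspd1 rose by 0.68 ± 0.084 (adjusted p = 0.000195).

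Among ubiquitin and quality control genes 4 of 6 rose and 0 fell, beside 19.5% and 21.6% of all genes. Zfand2a, an arsenite-inducible protein that associates with the proteasome, rose by 1.501 ± 0.109 (SE; adjusted p = 7.24e-06), and its mean signal was 297.2 in controls and 859.4 in treated cultures. The autophagy receptor Sqstm1 rose by 1.20 ± 0.080 (adjusted p = 4.08e-06) and the ubiquitin-conjugating enzyme Ube2n by 0.63 ± 0.086 (adjusted p = 0.00034). In the endoplasmic reticulum 5 of 15 chaperones rose and 0 fell (1 by the probe set of lowest p). The J-domain partners of BiP, Dnajb11 and Dnajb9, rose by 0.61 ± 0.090 and 0.70 ± 0.133 (SE; adjusted p = 0.000594 and 0.00262) and the lectin chaperone Calr by 0.26 ± 0.067 (adjusted p = 0.0119). BiP itself, Hspa5, named after its value was seen, changed by 0.08 ± 0.091 (adjusted p = 0.554).

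Of 8 mitochondrial chaperones 2 were higher and 2 lower, near the shares of all genes (19.5% higher and 21.6% lower). The exchange factor Grpel1 rose by 0.45 ± 0.086 (SE; adjusted p = 0.00246), while the mitochondrial HSP70 Hspa9 (-0.39 ± 0.088; adjusted p = 0.00627) and the protease Lonp1 (-0.52 ± 0.128; adjusted p = 0.0101) fell. Of the heat shock factor list 3 genes were tested. By their brightest probe sets 0 were called by limma, and 0 had an unadjusted p under 0.05. Hsbp1, which binds HSF1, changed by 0.08 ± 0.086 (adjusted p = 0.515), Hsf4 by 0.235 ± 0.275 (adjusted p = 0.545) and Hsf2 by 0.155 ± 0.245 (adjusted p = 0.661). These probe sets of Hsf4 and Hsf2 were dim, with control means of 52.7 and 64.0. Read by the probe set of lowest p, 1 of the 3 was called higher. Hsf1 was not analysed here.

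**Figure D3:**
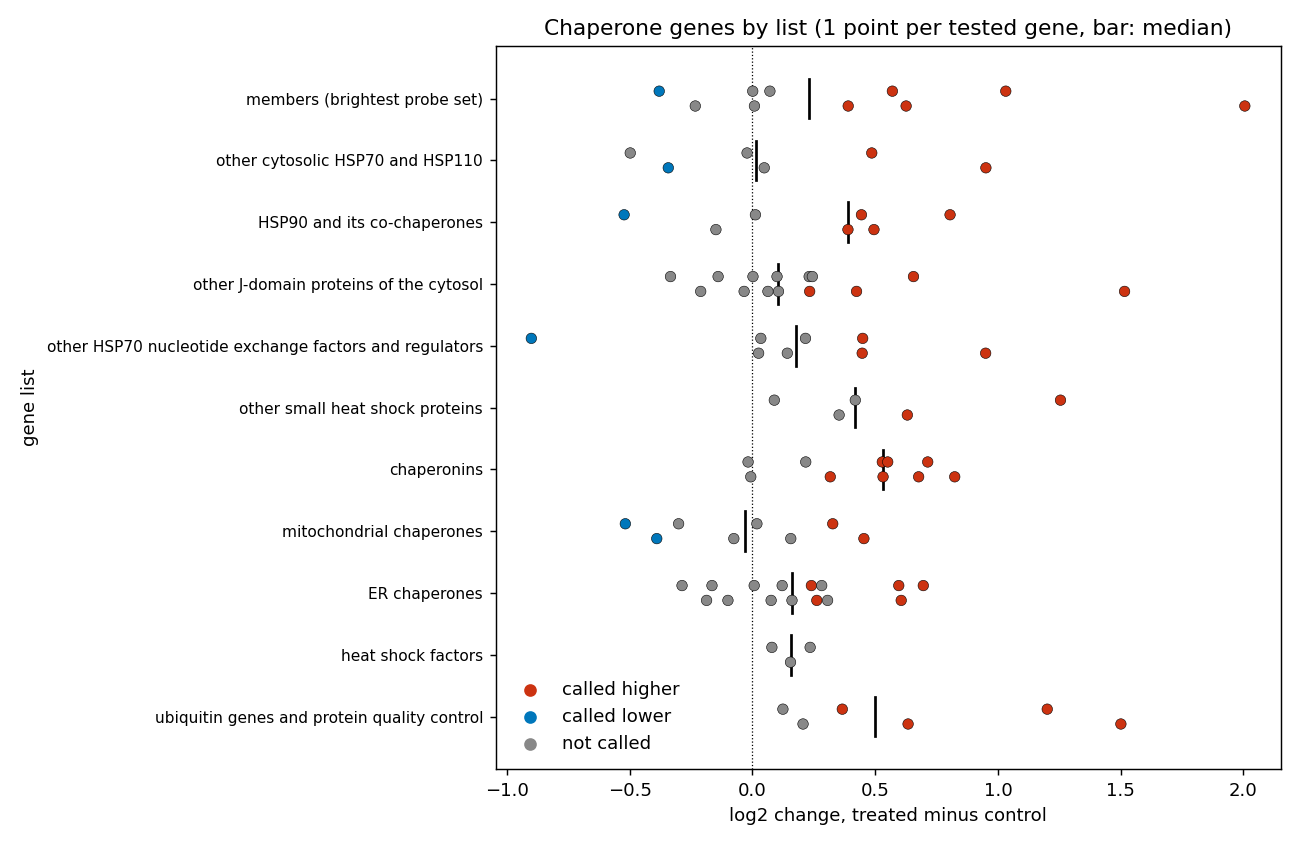
Log2 change, treated minus control, of each tested gene in the members and in 10 chaperone lists, 1 point per gene by its brightest probe set, coloured by call, with a bar at the median. Chaperonins have 7 of 10 points called higher, mitochondrial chaperones have 2 called on each side, and Hspb1 is the point farthest to the right, at 2.01.

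Promoter windows were found for 8 of the 10 members, 12 windows in all. A pair of inverted GAA units in either order (GAANNTTC or TTCNNGAA, each its own reverse complement, which can overlap) was present for 7 of these 8 genes and for 17% of the 27025 genes with windows. The triple was present for 1 of the 8, Hsph1, and for 0.662% of all genes. The members were picked as heat shock genes and HSF1 targets, known for such repeats, so these shares are no independent result. Genes with several windows also had more chances of a match. Of the 7 genes with a pair, Hspb1, Hspb8 and Hsph1 had probe sets called higher, Hspa1b had 1 called lower, and Hspa1a, Bag3 and Dnaja1 (a pair in 1 of its 3 windows) had none called. Signal on the probe sets of Hspa1a and Hspa1b cannot be assigned to either gene with certainty. Dnajb1, with no pair in either window, rose at 1 probe set. CCAAT, on either strand, was present for 5 of the 8, against 41.1% of all genes, and TATAAA for 0 of the 8, against 15.7%. A match is a description of letters and not a binding site. The windows of Hspb1 and Hspb8 held 14 and 13 CpG dinucleotides, those of Hspa1a and Hspa1b 15 and 16, Hsph1 18 and 19, Bag3 21, Dnaja1 27 to 36 and Dnajb1 36 and 41, against a median of 7 over all 32851 windows. Many windows held few: 63.7% of all had at most the count of Hspb8, and 65.4% that of Hspb1. The shares were 67% for Hspa1a, 68.6% for Hspa1b and up to 97% for window 2 of Dnajb1. The arrays did not measure methylation.

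**Figure D4:**
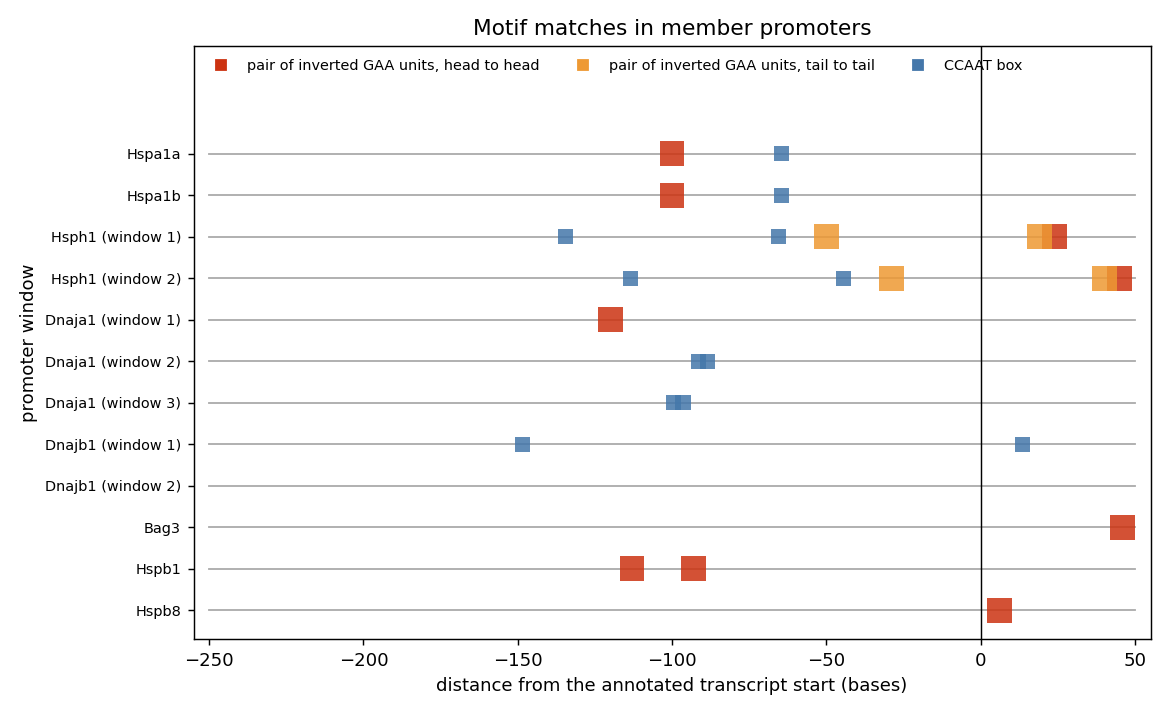
Positions of motif matches in the 12 promoter windows of 8 members, as distance in bases from the annotated transcript start, with boxes for the pairs of inverted GAA units in either order and for CCAAT on either strand. Hspb1 has 2 pairs before the start, Hsph1 has overlapping pairs after it, and window 2 of Dnajb1 has no box.

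The genes whose signal over the 6 arrays was most like that of 1452318_a_at of Hspa1b, by Pearson's r of log2 values among 12192 genes, were Egr3 (r = 0.994), Chm (r = 0.993) and Klf2 (r = 0.992). Such values were common over 6 arrays in 2 groups: 188 genes had an r of at least 0.95. Egr3 read 122.2, 276.9 and 659.2 in controls and 36.9, 46.2 and 50.6 in treated cultures. Klf2 read 235.7, 252.7 and 451.6 in controls and 121.3, 133.7 and 137.2 in treated cultures. In both, control array 3 was the highest, as it was for this probe set of Hspa1b.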

How the data were processed

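Expression was measured in 6 cultures, 3 treated and 3 control, grouped by the sample labels. The deposited values are MAS5 signal intensities per the submitters' processing notes. The MAS5 version, target level and calls of detection were not given in the sources used here, so dim signals could not be told from background. The number of arrays, 3 in a group, limits precision. Each array was scaled so that its trimmed mean (2% at each end, without 64 manufacturer control probe sets) equalled 193.2, and log2(signal + 9.66) was taken, which understates changes of dim probe sets. A probe set was tested if above its array's median on at least 3 of 6 arrays, which left 23388 of 45037. Treated and control groups were compared in limma 3.58.1 under R 4.3.3 (lmFit, then eBayes allowing the variance to follow the intensity), two-sided, with Benjamini-Hochberg adjustment over all tested probe sets. The procedure was tested on simulated data.

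All 26 member probe sets matched GRCm38.p6 by Entrez identifier with the same symbol, and promoters are from RefSeq on that build, matched by symbol. A list gene is read by its brightest tested probe set. The text names all members, up to 3 genes of each pathway list by smallest p, and the 3 genes most like Hspa1b. The members and lists were chosen with earlier results of these data known. Alternatives were the pseudocount, the filter, no scaling, quantile normalization, the replicate number as a block, no intensity trend, and leaving out each array.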

Additional observations from a re-analysis of the deposited data

How the results depend on the processing

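Left as deposited, without scaling, 5019 probe sets passed in place of 9040, and of the members 6 were higher and 0 lower in place of 14 and 1. Of the 5019, 1977 were higher and 3042 lower. Scaling shifts nearly all probe sets of an array alike, and unscaled the median log2 change over those tested was -0.071. Some changes near 0 turned sign with that shift: 1416288_at of Dnaja1 gave -0.076, 1416755_at of Dnajb1 -0.004 and Bag3 -0.067. With quantile normalization 1427126_at of Hspa1b gave 0.005, 1416288_at of Dnaja1 -0.127 and 1456434_x_at of Hspb8 0.022. The cause of the last 3 was not tested. With no filter, and with no intensity trend, 12 member probe sets were higher and 1 lower. With no filter 4084 of all 45037 probe sets were higher and 4415 lower. With no intensity trend 3905 of all 23388 were higher and 4413 lower. Leaving out 1 array at a time gave -0.146 to 0.047 for 1427126_at of Hspa1b, -0.073 to 0.06 and -0.424 to 0.17 for 1416288_at and 1459835_s_at of Dnaja1, -0.085 to 0.194 for Bag3 and -0.269 to 0.093 for 1456434_x_at of Hspb8. Between 11 and 13 member probe sets were then higher and 1 lower, of 7234 to 7660 probe sets called. Treated and control cultures share replicate numbers, and same-numbered arrays deviated together at r = 0.186, 0.172 and 0.072, each the best match of its array. The replicate block gave 9541 calls, with 14 member probe sets higher and 1 lower, and changed no member's call.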
